A study of Mus musculus with 4 samples.

Results

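The report concerns 8 genes of the interleukin-6 (IL-6) and oncostatin family, taken by symbol from the 32285 genes of the count tables. They comprise 4 ligand genes (Il6, Il11, Lif and Osm), 3 receptor genes (Il6ra, Il6st and Osmr) and the feedback gene Socs3, and the rule that lists them sets no threshold on a measured value. All 8 were found, with 1017 UMIs (Il11) to 31408 UMIs (Socs3) in the 39550 cells kept. A unique molecular identifier (UMI) marks 1 captured transcript molecule, and levels are given as CPM, the UMIs of a gene per 1000000 UMIs of a cell class in 1 sample. Intervals in parentheses are 95% exact intervals and cover counting error only. Values of a single cluster are over all 4 samples unless a sample is named, and their intervals do not cover differences between samples.

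The study concerned mice without the aryl hydrocarbon receptor (AhR) and wild type mice in a colitis model, in which dextran sulfate sodium (DSS) damages the lining of the colon. Every sample is a mix of 3 mice that had drunk 2% DSS over 7 days and were sampled on day 8, at an age of 10 weeks by the labels. Cells were enriched for CD45, a surface protein of leukocytes, by magnetic beads, and libraries were made with a droplet method. The labels number the samples 1 to 4 but do not give their genotype, so each sample is reported by itself, no genotypes are compared, and no test was made between samples.

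IL-6 family cytokines signal through gp130, the protein of Il6st, which many cell types carry. Another chain decides which cell responds: IL-6 needs the receptor of Il6ra, either on the cell or shed into the fluid, and oncostatin M needs the chain of Osmr paired with gp130. Interleukin-11 (Il11) and leukemia inhibitory factor (Lif) use gp130 with receptors of their own. The bound receptors activate JAK kinases and the transcription factor STAT3, and Socs3, a gene that STAT3 induces, encodes an inhibitor that binds gp130 and limits the signal. In the gut the family is known for its part in inflammation and in repair of the epithelium, and for exchange of signals between leukocytes and stromal cells.

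Samples 1 to 4 kept 10020, 11824, 10167 and 7539 cells with a median of 5633.5 to 7084 UMIs a cell. Of 48 clusters, 37 were named in 16 classes from marker genes, 8 held markers of unlike lineages and are called mixed, and 3 were left unnamed. The mixed label was not open to fibroblast, mural, endothelial or epithelial clusters. Mixed cells made up 10.8% to 21.7% of a sample, and 628 of the 666 cells of 1 unnamed cluster, led by Gzma, came from sample 2. Pairs of samples shared 23 to 49 cell barcodes, at most 0.423% of the smaller sample. The 8 genes and the other genes of the pathway were left out of the genes on which cells were clustered.

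Although the cells were enriched for CD45, the libraries held 656 fibroblasts (64 to 341 a sample), 213 endothelial cells (22 to 99), 198 mural cells (21 to 102) and 331 epithelial cells (41 to 158). Col3a1, Cdh5 and Myh11 were among the markers from which the classes were named. Their levels therefore describe the classes and do not test the names. The collagen gene Col3a1 ranged from 1535 to 8312 CPM in fibroblasts and from 2.60 to 8.72 in macrophages. Cdh5, the cadherin of endothelial junctions, ranged from 734 to 1087 CPM in endothelium and was at most 1.56 in fibroblasts. Myh11, the smooth muscle myosin, ranged from 1151 to 2954 CPM in mural cells. Ptprc, which encodes CD45, had a median of 96.8 CPM in fibroblasts, 129 in endothelium and 53.3 in mural cells, beside 1208 in macrophages and 2447 in neutrophils. The larger fibroblast cluster, 37, also held 27 cells that a marker gate called glia. Numbers of stromal cells here are those that passed the CD45 selection and not their numbers in the tissue.

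The 250 bases before RefSeq starts were searched for motifs known as AP-1, STAT, NF-kB and CRE, and the one found before most members is shown. Of the 4 members at least 4-fold higher in fibroblasts than in macrophages in every sample, Il6, Il11 and Lif held that motif. Osmr did not, but its window lay within the span of the gene and began in an annotated exon. The motif, TGANTCA, is the one that AP-1 factors are known to bind, it reads the same on both strands, and it was found in 3 of the 7 members with a RefSeq window, all searched over 250 bases, and in 6.75% of all 32851 RefSeq windows of that length. The sequences are shown for that reason, on GRCm38.p6, 5′ to 3′ on the gene's strand, with the motif in capitals. That of Il6 is chr5:30012864-30013113 on the plus strand, with 242 bases between motif and start. That of Il11 is chr7:4778142-4778391 on the minus strand, with 91 bases between, and lies within the span of the gene but outside its annotated exons. The other Il11 window held no such motif. That of Lif is chr11:4257318-4257556 on the plus strand, 221 bases from the start, shown for the 239 bases before the first annotated exon.
Il6: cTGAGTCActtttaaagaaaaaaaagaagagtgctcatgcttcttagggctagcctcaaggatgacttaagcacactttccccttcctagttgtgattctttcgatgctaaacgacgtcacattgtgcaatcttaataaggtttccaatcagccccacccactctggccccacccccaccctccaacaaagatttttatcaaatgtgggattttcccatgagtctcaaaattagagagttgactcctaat
Il11: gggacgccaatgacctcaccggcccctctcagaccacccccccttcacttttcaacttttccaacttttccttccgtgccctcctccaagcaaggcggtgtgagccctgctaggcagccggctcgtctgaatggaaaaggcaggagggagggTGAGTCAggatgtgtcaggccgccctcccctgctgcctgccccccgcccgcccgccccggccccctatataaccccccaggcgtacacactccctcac
Lif: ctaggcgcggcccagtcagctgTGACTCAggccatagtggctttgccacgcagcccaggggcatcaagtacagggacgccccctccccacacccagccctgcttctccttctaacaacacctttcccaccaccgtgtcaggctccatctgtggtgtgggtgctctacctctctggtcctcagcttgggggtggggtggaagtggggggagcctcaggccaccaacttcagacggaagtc
A match is a description of these letters and not a site of binding. The STAT motif TTCNNNGAA was found before Socs3 alone among the members and in 7.02% of all windows.

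Il6 encodes IL-6 itself and lies at chr5:30013114-30019981 (GRCm38, GENCODE M21, plus strand). Its highest level was in the class of mast cells and basophils in samples 1, 3 and 4, with 1499, 2121 and 1606 CPM, and 278 CPM in sample 2. Fibroblasts held 382, 394, 388 and 435 CPM in samples 1 to 4, a range of 1.14-fold. Endothelium held 516, 313, 422 and 476 CPM, and mural cells 483, 153, 189 and 390.1 CPM. Intervals of endothelium and fibroblasts overlapped in 3 of 4 samples, and those of fibroblasts and mural cells in 2 of 4. Mural cells were the lowest of the 3 stromal classes in samples 2, 3 and 4. Each of the 3 was above monocytes, macrophages, dendritic cells and neutrophils in each of the 4 samples.

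Monocytes followed with 22.8, 25.5, 28.8 and 78.6 CPM, macrophages with 11.9, 5.68, 28.9 and 53.5 CPM, and conventional dendritic cells (cDC) with 16.7, 18.7, 47.01 and 43.4 CPM. Type 2 innate lymphoid cells (ILC2) held 6.83 to 35.9 CPM. These classes overlapped, and their order changed between samples. Neutrophils were near 0, with 0.686, 0, 2.57 and 1.32 CPM from 39 UMIs in 5721 cells. B cells, T cells and epithelium also stayed low, at most 1.78, 1.68 and 1.35 CPM.

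Relative to macrophages of the same sample, Il6 was 32.0-fold (26.3 to 39.0), 69.4-fold (50.7 to 97.3), 13.4-fold (11.9 to 15.2) and 8.12-fold (7.18 to 9.20) higher in fibroblasts of samples 1 to 4. No interval included 1. The ratio of mast cells to fibroblasts was 3.93, 5.46 and 3.69 in samples 1, 3 and 4 and 0.706 (0.607 to 0.820) in sample 2, so that the order of the classes was turned in that sample. Free RNA was not measured, and fibroblast genes were set beside Il6 instead. The macrophage level was 0.000459 to 0.00169 of the fibroblast level for Col3a1, 0.000433 to 0.00135 for Dcn and 0.0144 to 0.123 for Il6. How far free RNA, doublets or misplaced cells made up these levels was not tested. Against mast cells, the macrophage level was 0.000126 to 0.000922 for Cpa3, a mast cell protease gene, and 0.00797 to 0.0333 for Il6.

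**Figure D1:**
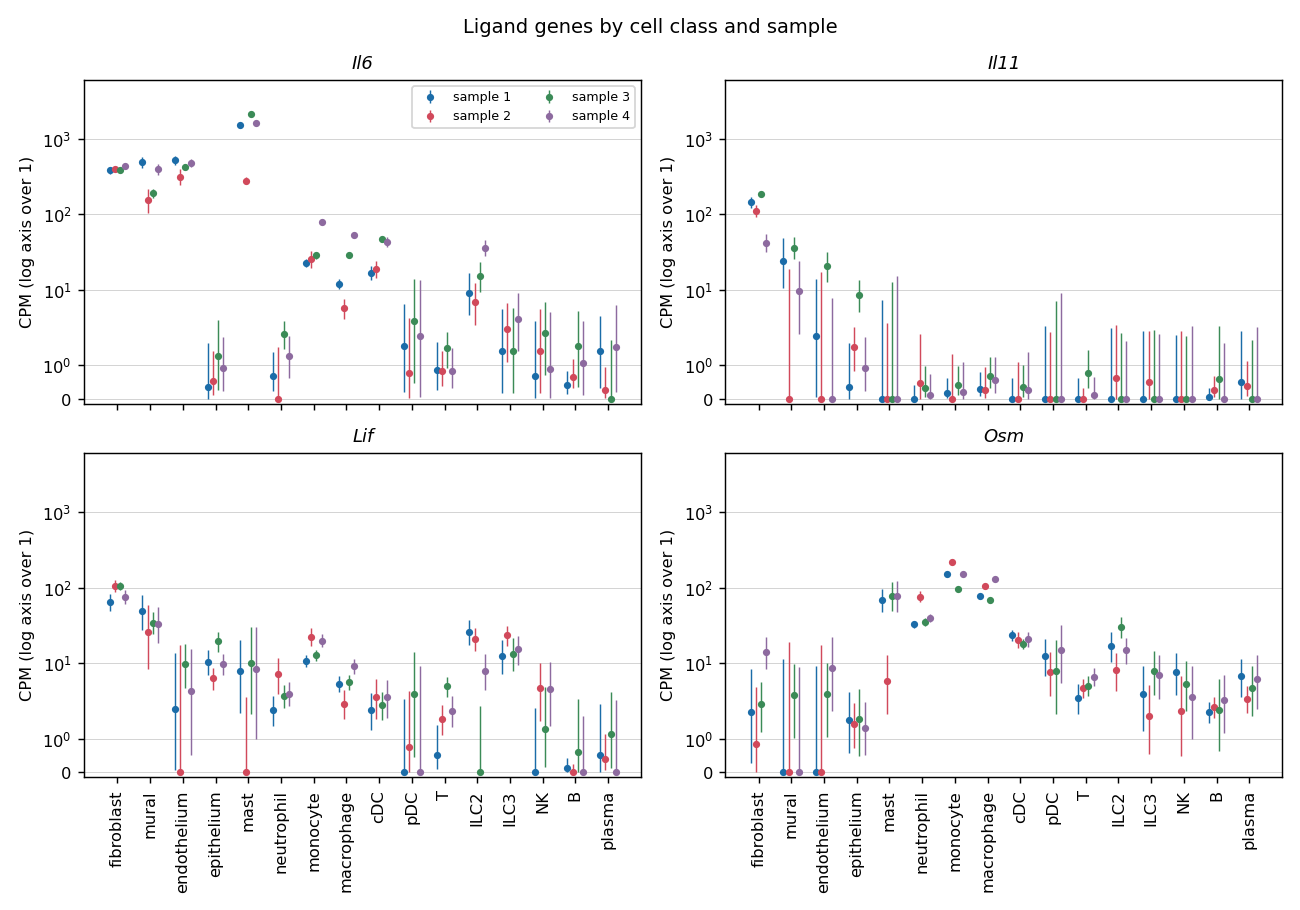
CPM of the 4 ligand genes (vertical axes, logarithmic above 1 and linear below) in the 16 cell classes (horizontal axes), with 1 point for each of the 4 samples and bars for 95% exact Poisson intervals. Il6 is high in the class of mast cells and basophils and in the 3 stromal classes. Il11 and Lif are highest in fibroblasts, and Osm is highest in monocytes and macrophages.

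The class of mast cells and basophils held 218 cells and was divided at 1000 CPM of Mcpt1 and Mcpt2 together in each cell, the proteases of mucosal mast cells. The division was chosen after the values had been seen, and 7 cells lay between 500 and 2000 CPM. The 74 cells under the limit held Il6 at 3673, 749.9 (597 to 929.6), 2776 and 3208 CPM in samples 1 to 4, from 25, 12, 22 and 15 cells. The 144 cells at or over it held 409.8 (344 to 484), 221, 658 and 619.9 CPM, from 22, 97, 11 and 14 cells.

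In each of the 4 samples the cells low in mucosal proteases held more Il6 than the others. They also held Il4, a cytokine gene of basophils and mast cells, at 389 to 1474 CPM, beside 54.8 to 153 in the others. Mcpt8, a basophil protease, did not follow the division in the same way, with 627, 497, 668 and 3100 CPM in the low cells and 520.5, 639.8, 11.0 and 719.9 CPM in the others. Nor did the level of Cpa3. It was lower in the low cells of samples 1, 2 and 3 and higher in sample 4, with 2655 beside 1227 CPM. A UMI of Cpa3 was found in 13 of 25, 7 of 12, 5 of 22 and 6 of 15 low cells. In the others it was found in 21 of 22, 87 of 97, 10 of 11 and 13 of 14. Kit, another marker of the class, was lower in the low cells of each sample, at 436, 723, 143 and 423 CPM. The others held 808, 816, 778 and 1187 CPM of Kit, with overlapping intervals in sample 2. Osm followed the same division, with 197, 27.1, 113 and 195 CPM in the low cells and at most 6.67 CPM in the others, although both values of sample 2 rested on 3 UMIs and their intervals overlapped. Of the 109 cells of sample 2, 97 were over the limit, beside 22 of 47 in sample 1, and in both subdivisions sample 2 was the lowest for Il6.

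**Figure D2:**
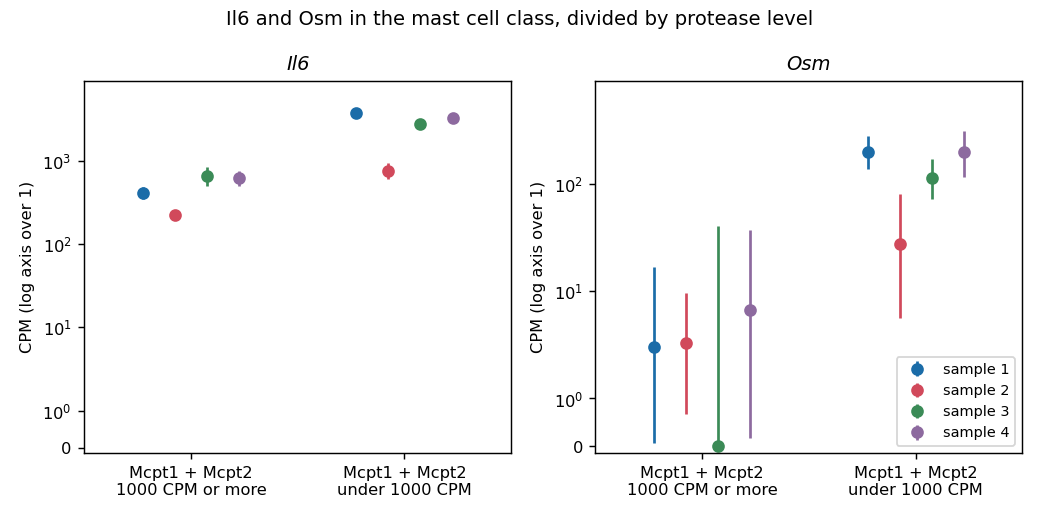
CPM of Il6 (left) and Osm (right) in cells of the mast class with Mcpt1 and Mcpt2 at or over 1000 CPM and under it, on axes that are logarithmic above 1. Points are the 4 samples and bars 95% exact Poisson intervals; in every sample the cells under 1000 CPM are higher for both genes.

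Among stromal clusters, Il6 differed more than between the classes. The fibroblast cluster led by Lum and Col3a1 (46, 113 cells) held 716 CPM (673 to 761), and the cluster led by Cxcl13 (37, 543 cells) 299 CPM (284 to 316). In the 3 samples with at least 20 cells of the former, it held 635, 562 and 746 CPM in samples 2, 3 and 4, and the latter 209, 373 and 210.1 CPM. Of the mural clusters, that led by Rgs5, a pericyte gene (40, 94 cells), held 635 CPM (581 to 694). That led by Dmd (47, 104 cells) held 46.1 CPM (34.8 to 59.8). Both had Myh11, Acta2 and Tagln among their leading genes. The samples in which both could be read, 3 and 4, gave 722 and 779 CPM in the Rgs5-led cluster. The Dmd-led cluster held 58.1 and 32.0 CPM there. In both samples the Rgs5-led cells were thus above fibroblasts and endothelium as classes, and the Dmd-led cells below them.

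Among leukocyte clusters, monocytes led by Chil3 held Il6 at 49.3 CPM (45.7 to 53.0) and those led by Vcan at 12.7 CPM, and the former were higher in each of the 4 samples. Those led by Cxcl9 held 36.5 CPM (31.9 to 41.5). They were above the Chil3-led cells in sample 1, with 39.7 beside 26.3 CPM, and below them in samples 2 and 3. In sample 1 they held 202 of the 268 Il6 UMIs of monocytes, and sample 4 had under 20 such cells. Over all samples, macrophage clusters led by Tll2, Ccl8, Marco and Pf4 held 49.6, 42.2, 35.6 and 29.6 CPM, and the largest, led by Aif1, 3.69 CPM (2.79 to 4.80). The order of the former varied between samples. Dendritic cells led by Fscn1 and Ccl22 held 59.3 CPM (54.6 to 64.3), beside 11.3 CPM (9.48 to 13.5) in the other large cDC cluster. The Aif1-led cluster had 1203 of its 2144 cells in sample 1 and the Chil3-led cluster 1193 of 1950 in sample 3, so the makeup of a class moved with the sample.

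Il11, a cytokine known from fibroblasts under injury, lies at chr7:4772373-4782859 (minus strand). It held 143, 109.7 (91.6 to 130.5), 184 and 42.0 CPM in fibroblasts of samples 1 to 4. Fibroblasts were its highest class in 4 of 4 samples, and they held 73.0% to 85.0% of its UMIs. Mural cells followed with 24.3, 0, 36.2 and 9.51 CPM. The ratio of fibroblasts to mural cells was 5.89 (2.90 to 13.9), 5.08 (3.65 to 7.27) and 4.41 (1.63 to 16.8) in samples 1, 3 and 4. In sample 2 mural cells had no UMI. The ratio there was 7.17 with 3 UMIs in place of 0, and its exact lower limit was 5.75. Endothelium had no UMI of Il11 in samples 2 and 4, 1 in sample 1 and 21 in sample 3. Both fibroblast clusters carried the gene, over all samples at 141 CPM (130 to 152) in the Cxcl13-led and 112 CPM (95.8 to 131) in the Lum-led cluster. The Cxcl13-led cluster held 101, 105, 194 and 29.4 CPM in samples 1 to 4, and 497 of its 658 UMIs came from sample 3. The Lum-led cluster held 116, 74.6 and 59.4 CPM in samples 2, 3 and 4, so that their order was not the same there. Across leukocytes no class passed 0.782 CPM in a sample, and mast cells, plasmacytoid dendritic cells (pDC) and NK cells had no UMI.

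Lif lies at chr11:4257557-4272514 (plus strand), 16530 bases beyond the end of Osm. It was also highest in fibroblasts in 4 of 4 samples, with 64.2, 106, 105 and 75.4 CPM. Mural cells held 48.7, 25.5, 34.3 and 33.3 CPM. The interval of the ratio of fibroblasts to mural cells included 1 in sample 1, at 1.32 (0.746 to 2.46), and lay above 1 in the other 3. In contrast to Il11, Lif was also found in leukocytes: monocytes held 10.7, 22.4, 12.6 and 19.9 CPM, and type 3 innate lymphoid cells (ILC3) 12.5, 23.3, 13.4 and 15.3 CPM. Monocytes held 2.02-fold to 7.70-fold the level of macrophages, and the intervals lay above 1 in each sample. Against fibroblasts, the level of Lif was 0.120 to 0.264 in monocytes and that of Col3a1 0.000264 to 0.00244. ILC2 varied most, from 0 in sample 3 to 25.9 CPM in sample 1. Endothelium, with 0 to 9.72 CPM from 13 UMIs, lay far below the other stromal classes. The cluster named ILC3 had Trdc, a T cell receptor gene, among its leading genes.

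Osm encodes oncostatin M and lies at chr11:4236420-4241026 (plus strand). It had the opposite distribution. Monocytes were highest in 4 of 4 samples, with 150.5 (144 to 158), 217, 95.4 and 152 CPM, followed by macrophages with 78.1, 105, 69.0 and 131 CPM. The mast class, with 67.8, 5.86, 78.0 and 78.4 CPM, was above macrophages in sample 3, with overlapping intervals, and above neutrophils in samples 1, 3 and 4. The ratio of monocytes to macrophages was 1.93 (1.78 to 2.08), 2.06 (1.85 to 2.30), 1.38 (1.26 to 1.51) and 1.17 (1.06 to 1.28), so that the intervals excluded 1 in each sample while the ratio itself varied. Neutrophils held 32.5, 76.1, 35.2 and 39.5 CPM. They were below macrophages in every sample, with ratios of macrophages to neutrophils from 1.38 (1.17 to 1.65) to 3.31 (2.91 to 3.77). The neutrophil level was 0.216 to 0.369 of the monocyte level for Osm, beside 0.00461 to 0.0133 for the monocyte gene Vcan. Monocytes and macrophages together made up most named UMIs of Osm, 23.2% to 44.4% and 25.2% to 38.2% of a sample.

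In the stromal classes Osm was low. Fibroblasts held 2.29, 0.857, 2.86 and 14.0 CPM from 2, 1, 8 and 18 UMIs, and mural cells had a UMI in sample 3 only. The ratio of macrophages to fibroblasts was 34.1 (9.40 to 282), 123 (22.0 to 4855), 24.1 (12.2 to 56.1) and 9.33 (5.87 to 15.8). The fibroblast level of macrophage genes, against macrophages, was 0.00482 to 0.0218 for C1qa, 0.00263 to 0.0147 for C1qb and 0.0585 to 0.314 for Apoe. That of Osm was 0.00815 to 0.107, above C1qa and C1qb and below Apoe in each sample. Among macrophages, Osm was higher in the Ccl8-led and Pf4-led clusters, at 124 CPM (116 to 132) and 134 CPM (125 to 144), than in the Aif1-led and Marco-led clusters, at 71.8 and 71.3 CPM.

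Osmr, the chain that gives oncostatin M its own receptor, lies at chr15:6813577-6874969 (minus strand). Endothelium was highest in 4 of 4 samples, with 357, 514, 296 and 431 CPM. Fibroblasts held 303, 197, 293 and 261 CPM, and mural cells 216, 265, 189 and 207 CPM. The intervals of endothelium and fibroblasts overlapped in samples 1 and 3, and fibroblasts were lower in samples 2 and 4, at 0.384 (0.304 to 0.486) and 0.604 (0.506 to 0.723) of endothelium. Epithelium held 19.9, 9.07, 6.30 and 3.24 CPM. No leukocyte class passed 1.95 CPM in a sample, and mast cells had no UMI.

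The contrast of Osmr with macrophages was the widest of the 8 genes. Fibroblasts were 1293-fold (438 to 6310), 498-fold (168 to 2431), 384-fold (208 to 804) and 212-fold (117 to 430) above macrophages, which had 3, 3, 10 and 11 UMIs. The macrophage level of Osmr, 0.000773 to 0.00471 of that of fibroblasts, was above that of Col3a1 and Dcn in each sample, most in sample 4, where it was 0.00471 beside 0.000860 and 0.00113. A UMI of Osmr was found in 69.7% to 78.1% of fibroblasts and in 0.199% to 0.615% of macrophages, at median depths of 6761 to 11528 and 5553 to 8180.5 UMIs a cell. With each cell thinned to 1000 UMIs the shares were 19.2% to 22.9% and 0% to 0.0883%. The stromal and endothelial classes together held most UMIs of Osmr, with 48.4% to 59.0% in fibroblasts, 21.9% to 30.3% in endothelium and 11.1% to 14.3% in mural cells.

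Il6st, the gene of gp130, lies at chr13:112464070-112510086 (plus strand) and was found in every class. Endothelium was highest in 4 of 4 samples, with 429, 542, 349.9 (315 to 388) and 493 CPM. Mural cells held 359, 342, 319 and 435 CPM and fibroblasts 271, 240.1, 286 and 323 CPM, and intervals of neighbours in this order overlapped in 3 of 4 samples. T cells came next with 192, 144, 229 and 233 CPM, below fibroblasts in every sample with no overlap of intervals. Neutrophils were the lowest class, with 2.17, 3.31, 3.24 and 2.51 CPM. Macrophages held 55.2 to 75.8 CPM, 34.9-fold (22.2 to 58.2), 16.7-fold (8.03 to 41.8), 20.4-fold (14.1 to 30.6) and 23.1-fold (14.6 to 38.6) above neutrophils.

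Transcripts of the shared chain were thus rare in neutrophils, while those of Il6ra were not. Of 5721 neutrophils, 68 had a UMI of Il6st, 1081 a UMI of Il6ra and 21 UMIs of both, at median depths of 2899 to 5920 UMIs a cell. A UMI of Il6st was found in 23.5% to 37.4% of macrophages and 1.04% to 1.28% of neutrophils, and in 4.58% to 7.77% and 0.0906% to 0.464% with cells thinned to 1000 UMIs. The neutrophil level, against macrophages, was 0.0287 to 0.0599 for Il6st and 0.00736 to 0.0115 for C1qa. Among T cells, the cluster with Foxp3 among its leading genes, the factor of regulatory T cells, held Il6st at 452 CPM (433 to 470), and the Lef1-led cluster 195 CPM (183 to 209). The Foxp3 cluster held 339, 292, 560.3 and 505 CPM in samples 1 to 4 and was above the Lef1-led cluster in each. Mixed cells held 20.6% to 41.8% of the UMIs of Il6st, more than for any other member.

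Il6ra lies at chr3:89864059-89913196 (minus strand) and overlaps an antisense gene, Gm42809, on the other strand. Whether counting used strand is not given in the sources used here. Its order was the least settled of the 8. Plasmacytoid dendritic cells held 127, 63.8, 182 and 149.5 (114 to 192) CPM, fibroblasts 99.7, 57.4, 162 and 194 CPM, and macrophages 104, 124, 117 and 133 CPM. Each of these classes was highest in at least 1 sample. The ratio of fibroblasts to macrophages was 0.963 (0.766 to 1.20), 0.462 (0.355 to 0.592), 1.39 (1.25 to 1.54) and 1.46 (1.27 to 1.68), that is, without a common direction. Monocytes were below macrophages in every sample, at 0.681 (0.610 to 0.760) to 0.850 (0.788 to 0.918) of their level. Neutrophils held 37.2, 37.3, 68.4 and 56.1 CPM and B cells 57.8, 33.2, 83.9 and 81.1 CPM. NK cells were the lowest leukocyte class, with 6.99 to 11.7 CPM.

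Within T cells, Il6ra was 84.1 CPM (75.9 to 93.1) in the Lef1-led cluster 48.1 CPM (42.3 to 54.5) in the Foxp3 cluster and 6.34 CPM (4.57 to 8.58) in the Klra7-led cluster. The Lef1-led cluster was above the Foxp3 cluster in samples 2, 3 and 4 and below it in sample 1, with 71.4 beside 102 CPM. Of fibroblasts, 34.4% to 53.1% had UMIs of both chains of the IL-6 receptor, Il6ra and Il6st. UMIs of Osmr and Il6st together were found in 54.8% to 73.4% of fibroblasts, 59.7% to 73.3% of endothelial cells and 52.4% to 66.7% of mural cells. They were found together in 0 of 5721 neutrophils, with upper 95% limits of 0.264%, 0.544%, 0.163% and 0.265% in samples 1 to 4. These limits are on cells with both UMIs at this depth, and they set none on cells that express both.

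Socs3, the feedback gene, lies at chr11:117966079-117970047 (minus strand). Mural cells held 222, 260.2, 319.7 (286 to 356) and 304 CPM, fibroblasts 282, 242, 178 and 305 CPM, and endothelium 228, 449, 158 and 283 CPM. The highest class was fibroblasts in 2 samples and mural cells and endothelium in 1 each, and intervals of neighbours overlapped in 3 of 4 samples. Macrophages, with 190.4, 232, 195 and 211 CPM, and monocytes, with 173, 197, 199 and 184 CPM, lay close to the stromal classes. The ratio of fibroblasts to macrophages was 1.48 (1.29 to 1.69), 1.04 (0.918 to 1.18), 0.911 and 1.45 (1.29 to 1.61), and the intervals lay above 1 in samples 1 and 4 only. NK cells held 98.2 to 126 CPM, neutrophils 83.7, 74.2, 63.8 and 40.2 CPM, and B cells 19.2 to 40.4 CPM. Unlike Il6, Socs3 was higher in the Dmd-led mural cluster, at 389.9 CPM (356 to 427), than in the Rgs5-led cluster, at 146 CPM (120 to 175).

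**Figure D3:**
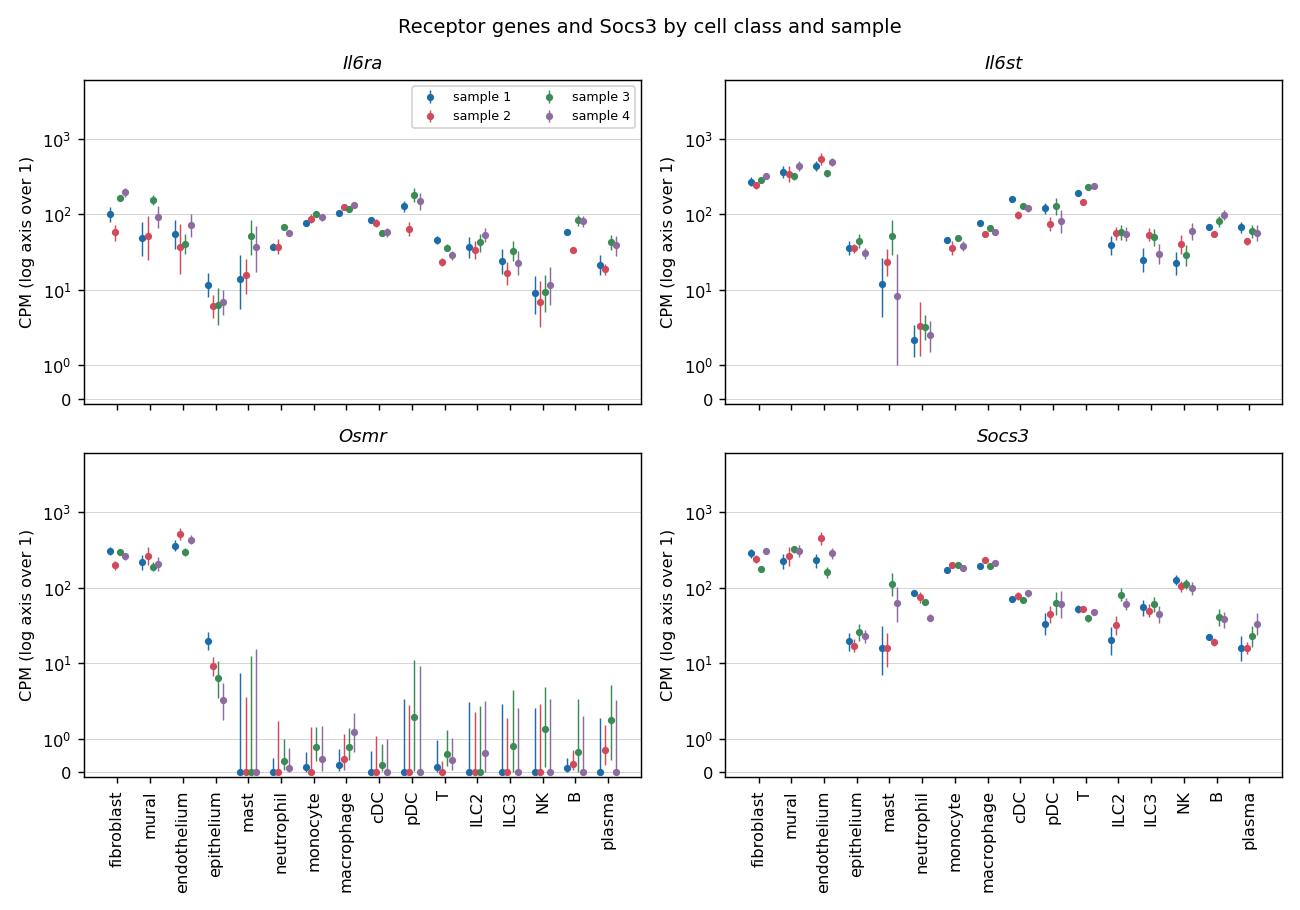
CPM of Il6ra, Il6st, Osmr and Socs3 (vertical axes, logarithmic above 1 and linear below) in the 16 cell classes, with 1 point for each of the 4 samples and bars for 95% exact Poisson intervals. Osmr is high in the 3 stromal classes, low in epithelium and at most 1.95 CPM in leukocytes, while Il6ra and Socs3 are found in every class and Il6st is lowest in neutrophils.

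**Figure D4:**
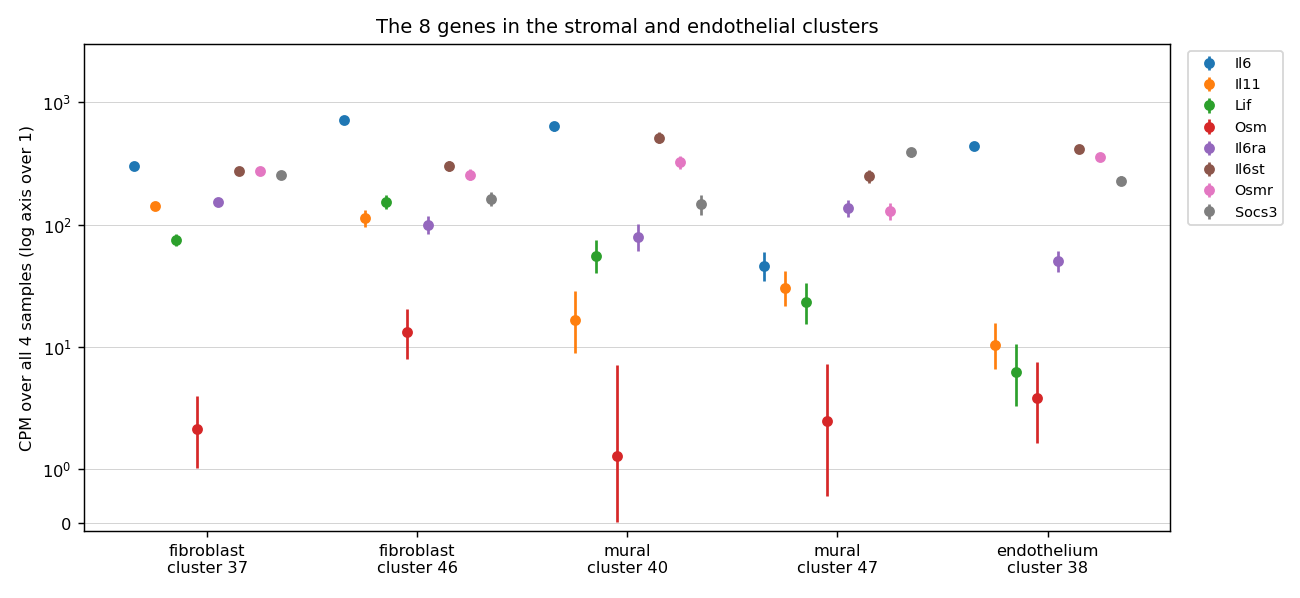
CPM of the 8 genes over all 4 samples (vertical axis, logarithmic above 1) in the 2 fibroblast clusters, the 2 mural clusters and the endothelial cluster, with 95% exact Poisson intervals. Over all samples Il6 is lowest and Socs3 highest in the Dmd-led mural cluster 47, although Socs3 is alike in clusters 47 and 37 of sample 4 (393 and 392 CPM). Il11 is highest in the fibroblast clusters.

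A call was made where a gene was at least 4-fold apart between 2 classes of the same sample in every sample. Between fibroblasts and macrophages, 4 of 8 members were higher (Il6, Il11, Lif and Osmr), where 10.9% of all 14903 genes tested were, and 1 was lower (Osm), where 3.36% were. Between endothelium and macrophages, 3 of 8 were higher (Il6, Il6st and Osmr), beside 7.48% of 14165 genes, and 1 was lower (Osm), beside 2.29%. Between neutrophils and macrophages, 0 of 8 were higher, beside 2.88% of 14479 genes, and 2 were lower (Il6 and Il6st), beside 14.3%. The call of Il6 in neutrophils was close to the limit in sample 2, where neutrophils had no UMI. With 3 UMIs in place of 0 the macrophage level was 4.01-fold higher, while the exact lower limit of the ratio was 3.12. The call of Il6 was lost under 7 of 15 other settings, and that of Il6st where mixed clusters were given a class. The call of Osm in fibroblasts was lost where no doublets were removed. The median log2 ratio of the 8 members was 3.02 in fibroblasts against macrophages, where that of all genes tested was 0.20, 1.57 beside 0.41 in endothelium and -1.49 beside -0.93 in neutrophils.

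**Figure D5:**
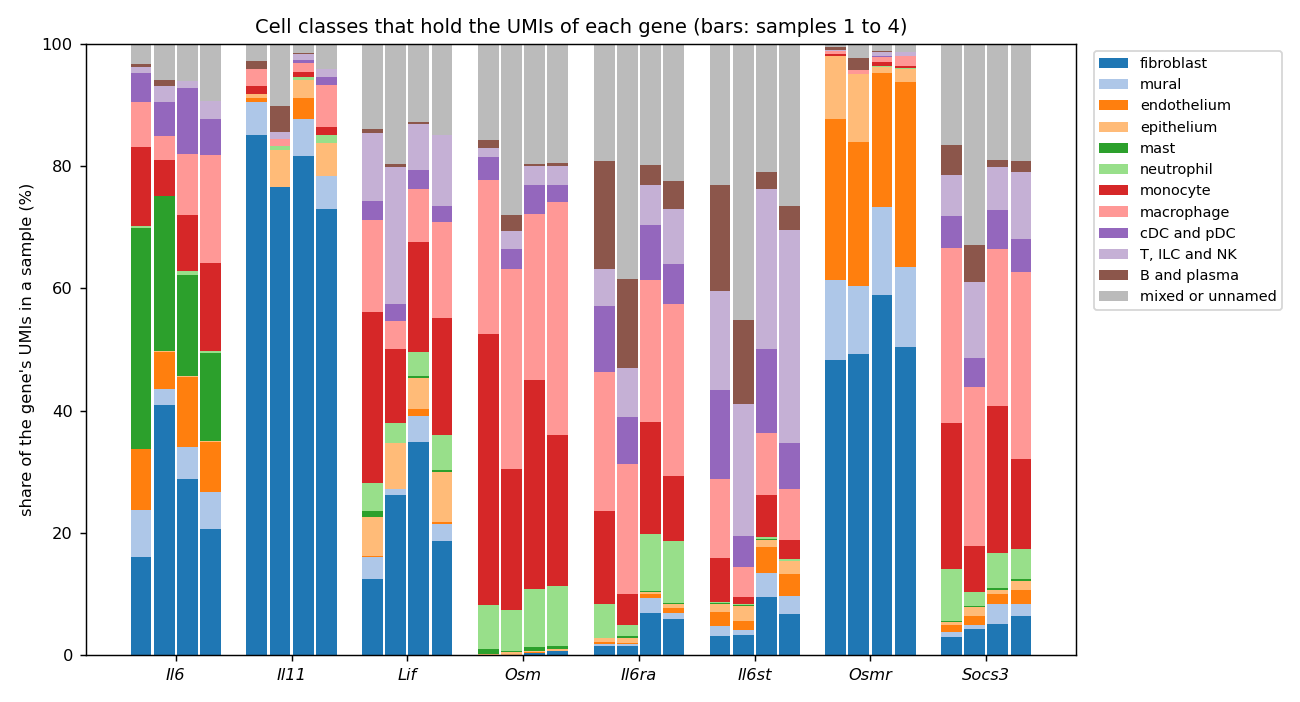
Share of each gene's UMIs (vertical axis, percent) by the cell class that held them, with bars for samples 1 to 4 of each gene and grey for mixed or unnamed cells. Fibroblasts, endothelium and mural cells hold most of Osmr and fibroblasts alone most of Il11, while monocytes and macrophages hold most named UMIs of Osm.

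Of 7 other ligands of the family, 5 could be tested in fibroblasts against macrophages. Ebi3, a chain of interleukin-27, was lower in fibroblasts, beside 3.36% of all genes. It was highest in neutrophils, with a median of 89.2 CPM (77.0 to 107 over samples). Clcf1 was highest in NK cells, at a median of 53.2 CPM, and lower in neutrophils than in macrophages, beside 14.3% of all genes. Of 5 other receptors, 4 were tested. Cntfr, the receptor of ciliary neurotrophic factor, was higher in fibroblasts, at a median of 5.68 CPM, beside 10.9% of all genes. Il11ra1, the chain that binds interleukin-11, was highest in fibroblasts, at 57.2 to 168 CPM, and Lifr, that of leukemia inhibitory factor, in endothelium, at 88.4 to 304 CPM. Both were lower in neutrophils than in macrophages, beside 14.3% of all genes.

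None of the 8 kinases and signal transducers passed the 4-fold limit in any of the 3 comparisons. Jak1 had medians of 832 CPM in NK cells and 815 in fibroblasts, and Stat3 was highest in NK cells, at 3167 to 3719 CPM. Of 7 feedback and shedding genes, none was called in fibroblasts, beside 10.9% of all genes higher and 3.36% lower. Socs2 was higher in endothelium, beside 7.48%, and lower in neutrophils, beside 14.3%. Adam17, a protease that sheds the IL-6 receptor, had its highest median in neutrophils, 324 CPM, with a range of 133 to 602.

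Of 12 genes known as targets of STAT3, 3 were higher in fibroblasts (Cebpd, Timp1 and Ptx3), beside 10.9% of all genes, and 0 lower, beside 3.36%. In endothelium, Cebpd and Lrg1 were higher and Saa3 lower, beside 7.48% and 2.29%, and in neutrophils Lrg1 and Lcn2 were higher and Saa3 and Timp1 lower, beside 2.88% and 14.3%. Ptx3, a soluble pattern recognition protein, held 37.9 to 422 CPM in fibroblasts. Lrg1 had medians of 634 CPM in endothelium and 631 in neutrophils, classes that were at opposite ends for Il6st. The median log2 ratio of the target genes was -0.16 in fibroblasts, 0.06 in endothelium and -0.08 in neutrophils, where the medians of all genes tested were 0.20, 0.41 and -0.93.

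The genes whose levels were most like those of each member were read over 64 points, 16 classes in 4 samples, among the 12036 genes that reached 20 CPM at some point. Points of 1 sample share a library, so the correlations are descriptions. Osmr was most like Amotl1, Cdr2l and Hspg2 (Pearson's r = 0.985, 0.981 and 0.979), and Il11 most like Lama1, Grem1 and Fbln1 (0.935, 0.924 and 0.923). Osm was most like Il1b, the interleukin-1 beta gene, with r = 0.927, then C5ar1 and Fcgr3 (0.919 and 0.915). For Il6 they included Tmcc2 and Prkg1 (0.905 and 0.886). Those of Lif were Mthfd2l, Lonrf3 and Fzd1 (0.769, 0.764 and 0.742), and those of Il6ra were 5031439G07Rik, Ifnar2 and Lgmn (0.819, 0.788 and 0.779). Il6st was most like Slc25a4, Fut11 and Emc10 (0.857, 0.845 and 0.828), and Socs3 most like Tnfsf12, Cyth3 and Bnip2 (0.851, 0.843 and 0.838).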

How the data were processed

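Single-cell libraries of 4 samples were used. The values are UMI counts of each gene in each cell, which the authors deposited unnormalized; the files' headers name Cell Ranger 7.0.1, and the submitters' processing notes name Cell Ranger 5.0.0, STAR, Seurat and mm10. Of 45229 deposited cells with 423410870 UMIs, those with at least 200 genes and under 20% mitochondrial UMIs were kept, 43432 in number. Doublets were taken as the highest Scrublet scores (scanpy 1.11.5), at 0.8% of cells per 1000 cells, and 3882 were removed. Clustering used 2000 variable genes, 30 principal components, 15 neighbours and Leiden resolution 2. A cluster was named for the class with the best marker score if at least 3 of its markers were raised. Only leukocyte clusters with more UMIs a cell than the median of their samples could be called mixed. They were so called where another lineage scored at least 0.6 of the best score, or where leading genes marked several lineages. Fibroblast, mural, endothelial and epithelial clusters were not screened in this way. The naming was settled after clusters had been seen.

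Counts were summed per class and sample where it held at least 20 cells, and 95% intervals are exact (Poisson, binomial, conditional binomial). Cells are not replicates and samples form no labelled groups, so no p-value was computed. Calls needed a 4-fold difference in every sample and 20 UMIs over both classes, with 3 UMIs in place of 0. The text names all members, genes of the pathway lists, the 3 genes most like each member, and marker and leading genes of clusters. Some genes that these rules name are not reported here. The members and lists were chosen with earlier results of these data known. Steps were tested on simulated data. Of 32285 gene identifiers, 32158 are in GENCODE M21. Promoters are from RefSeq (GRCm38.p6), where 7 of 8 members matched.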

Additional observations from a re-analysis of the deposited data

How the results depend on the processing

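Of 441 class medians of the members recomputed under other settings, 427 moved by less than 1 SD between samples. The class with the highest median was the same in 13 of 13 settings for Il11, Lif, Osm, Il6st and Osmr, in 12 for Il6, 11 for Socs3 and 9 for Il6ra. Il6ra was highest in fibroblasts with cells gated singly, with at least 50 cells per class and sample, and without replicate 1 or 2. With at least 50 cells, when mast cells were read in sample 2 only, Il6 was highest in endothelium, and Socs3 was highest in fibroblasts at Leiden resolution 1 and in endothelium without replicate 3.

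Of the 2 members lower in neutrophils than in macrophages, Il6 and Il6st, 1 was called, Il6st, with 500 genes per cell, mitochondrial UMIs under 10%, no doublets removed, Leiden resolution 1, members among the variable genes or cells gated singly, and 0 with mixed clusters given a class. The 2076 genes lower in neutrophils became 610 with mixed clusters given a class, 1186 with cells gated singly and 4467 at 2-fold. With no doublets removed, 321 genes and 0 members were lower in fibroblasts. With at least 50 cells, 547 genes were lower in endothelium. At 2-fold, 1123 genes were lower in fibroblasts, 1627 higher and 784 lower in endothelium, and 962 higher in neutrophils. Of the 24 most alike genes, 10 were shared under Spearman correlation. The causes were not tested. Without 1 sample in turn, 4 to 5 members were higher and 1 lower in fibroblasts, 3 higher and 1 lower in endothelium, and 2 lower in neutrophils. Leaving out cells gated as glia, a setting added after the data had been seen, gave the same counts of members. No paired analysis was possible because the samples form no labelled groups that a replicate number could pair, and the class ratios are taken within each sample. With 21 to 24 mural and 22 to 30 endothelial cells in samples 1 and 2, levels of a few CPM were not detectable there.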
